A study of Mus musculus with 2 samples.

Results

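The genes described here make prostaglandins, carry their signal into the cell or break them down, and the oxytocin receptor stands with them. They were the probe sets to which the array annotation gives exactly 1 gene symbol, where that symbol was Ptgs1, Ptgs2, Ptges, Ptgis, Hpgd, Ptger2, Ptger3, Ptger4, Ptgfr or Oxtr. Of the 10 genes 9 had such a probe set, with 20 probe sets among the 45101 of the array. Ptgs1 had none listed and is not analysed here. The Hand2-null array carried pooled RNA of uterine stromal cells from mice in which floxed Hand2 was crossed with PRcre. The control array carried pooled RNA of stromal cells from mice labelled Hand2 Floxed. Cells of both genotypes were taken on day 4 of pregnancy, left to attach to plates, and their RNA was extracted. Both are on a mixed C57BL/6 and SV129 background, and the labels of both also list Prcre, so they do not settle whether the control mice carried Cre. PRcre is expressed from the progesterone receptor locus, which is active in epithelium and muscle of the uterus as well as in stroma. For each genotype 5 mice are named in the design and treatment texts, but 4 where RNA extraction is described. With 1 array for each genotype there was no replicate, no test and no error of a difference.

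Prostaglandins are short-lived lipid signals. The cyclooxygenases encoded by Ptgs1 and Ptgs2 turn arachidonic acid into a common precursor. From it Ptges makes prostaglandin E and Ptgis makes prostacyclin. Hpgd starts the breakdown of prostaglandin E. The prostaglandin E receptors Ptger2 and Ptger4 raise cyclic AMP, Ptger3 mostly lowers it, and the prostaglandin F receptor Ptgfr and the oxytocin receptor act through Gq proteins on calcium. In the mouse uterus Ptgs2 is known for its induction around the implanting embryo, and the oxytocin receptor for its part in contraction of the muscle wall.

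The values are MAS5 signals, which are linear array intensities. A signal was read as measured when it reached a floor, set at the 60th percentile of each array, of 67.5 in the Hand2-null array and 64.2 in the control array. Hand2, which checks the labels, had a signal of 38.5 in the Hand2-null array, under the floor, and 1545 in the control array. Of the 18193 named genes, 10376 were measured in at least 1 array. The middle 95% of their log2 ratios, Hand2-null over control, lay between -0.66 and 0.93, with a median of -0.03. Measured probe sets of the same gene differed in log2 ratio with a pooled standard deviation of 0.21 over 4065 genes. Probe sets of a gene were read on the same arrays and from the same RNA pools. That value therefore holds no variation between mice and none between RNA pools, labellings or hybridizations that a gene's probe sets share. It is used below only as a scale and is not an error of a difference between genotypes.

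HAND2 is a basic helix-loop-helix factor, and such factors bind short E-boxes of the letters CANNTG. RefSeq start-site windows (GRCm38.p6, 250 bases before to 50 after the start, 5′ to 3′ on the gene's strand) were therefore searched on both strands, and those of 4 genes are printed with E-boxes in capitals. Oxtr, Hpgd and Ptger4 are shown because they had the largest differences among the genes with an entry, and Ptgs2 because it encodes the inducible cyclooxygenase.
Oxtr, chr6:112489776-112490075, minus strand: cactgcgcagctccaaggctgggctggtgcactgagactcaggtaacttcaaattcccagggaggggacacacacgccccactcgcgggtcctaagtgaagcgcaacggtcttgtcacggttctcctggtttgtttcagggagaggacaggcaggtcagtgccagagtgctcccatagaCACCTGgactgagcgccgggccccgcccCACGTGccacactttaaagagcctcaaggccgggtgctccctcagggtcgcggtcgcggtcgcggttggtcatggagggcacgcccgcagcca
Hpgd, chr8:56294302-56294601, plus strand: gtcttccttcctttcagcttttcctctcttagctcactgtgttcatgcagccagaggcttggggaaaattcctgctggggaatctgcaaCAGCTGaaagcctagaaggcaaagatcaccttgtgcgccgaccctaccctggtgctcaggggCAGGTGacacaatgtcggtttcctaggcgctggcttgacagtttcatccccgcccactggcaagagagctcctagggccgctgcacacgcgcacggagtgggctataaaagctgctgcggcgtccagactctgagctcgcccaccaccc
Ptgs2, chr1:150099781-150100080, plus strand: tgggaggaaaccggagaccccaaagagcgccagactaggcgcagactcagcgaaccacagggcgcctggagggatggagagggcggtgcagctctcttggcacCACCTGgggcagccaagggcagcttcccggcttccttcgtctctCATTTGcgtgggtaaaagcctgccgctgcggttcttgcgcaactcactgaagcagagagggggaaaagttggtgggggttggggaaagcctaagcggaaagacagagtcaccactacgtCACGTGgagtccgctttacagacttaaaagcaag
Ptger4, chr15:5244138-5244437, minus strand: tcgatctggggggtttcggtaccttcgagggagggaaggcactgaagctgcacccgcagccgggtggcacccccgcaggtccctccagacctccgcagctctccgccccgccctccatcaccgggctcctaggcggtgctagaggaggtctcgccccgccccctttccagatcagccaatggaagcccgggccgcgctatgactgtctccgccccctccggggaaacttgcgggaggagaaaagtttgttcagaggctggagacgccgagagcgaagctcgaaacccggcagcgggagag

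The Oxtr window held 2 E-boxes, of which 1 read CACGTG and began 43 bases before the start. The RefSeq record of Oxtr extends further upstream than this start, so the window may lie inside a longer transcript. The Hpgd window held 2 E-boxes, CAGCTG and CAGGTG, and TATAAA from base 5 after the start. The Ptgs2 window held 3 E-boxes, and the one that read CACGTG, from base 17 after the start, overlapped the letters ACGTCA, the reverse complement of the cyclic AMP response core TGACGT. The Ptger4 window held 0. Among the 9 genes with a window, 8 held at least 1 E-box, as did 72.3% of all 32851 windows of that length. CACGTG was found in 2 of the 9 and in 7.15% of all windows, TGACGT in 1 of the 9 and 7.51%, and TATAAA in 1 of the 9 and 13.6%. These matches describe letters in a window and no binding was measured. Ptgis has no window in that source.

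**Figure D1:**
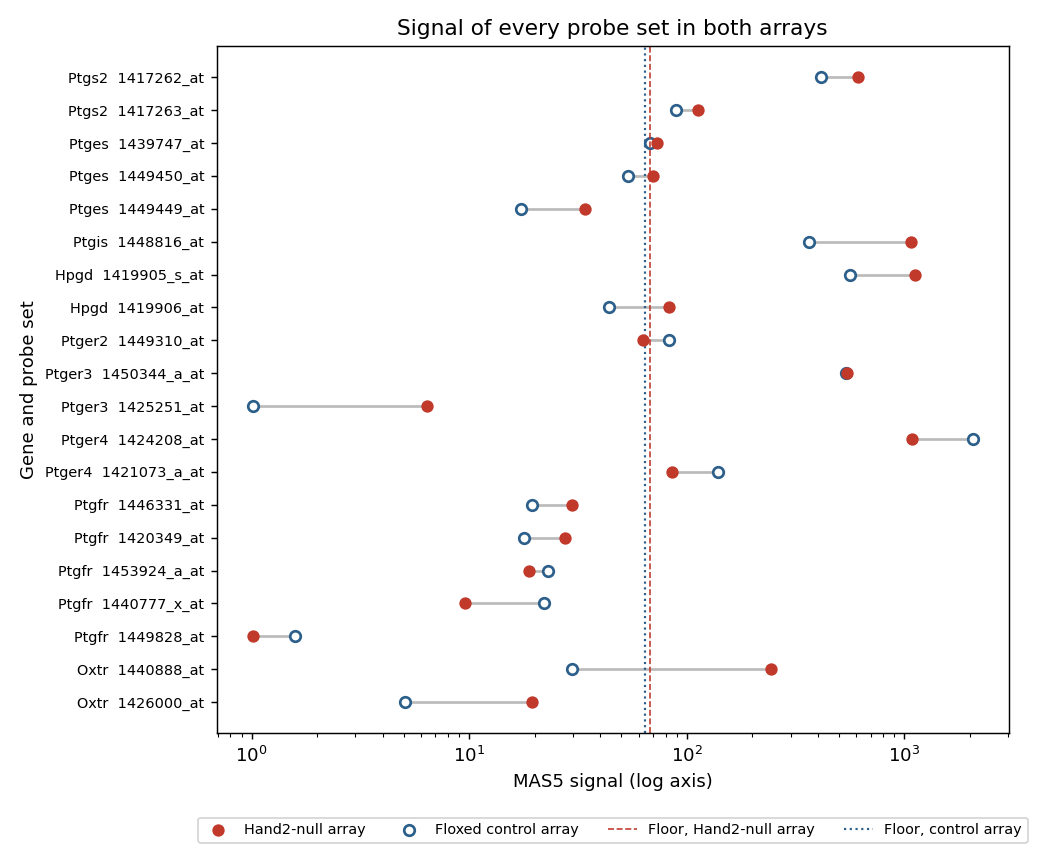
MAS5 signal on a log axis of each of the 20 probe sets, with the Hand2-null array as filled and the floxed control array as open symbols. Vertical lines mark the floors of 67.5 and 64.2. Ptgis, Hpgd and Oxtr lie further right in the Hand2-null array, Ptger4 lies further left, and the 5 probe sets of Ptgfr lie left of both floors.

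Ptgis, the prostacyclin synthase, differed most among the enzymes. It had a signal of 1075 in the Hand2-null array, against 366 in the control array. It was 2.94-fold higher, a log2 ratio of 1.56, and 0.511% of all measured genes had a ratio as high or higher. Both signals were well clear of the floor, but the gene has 1 probe set here, so no second reading of it exists. Prostacyclin is made by smooth muscle and endothelium of vessels and, in the mouse uterus, by the stroma around the implanting embryo.

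Ptgs2, the inducible cyclooxygenase, had signals of 614 in the Hand2-null array and 412 in the control array by 1417262_at, and of 113 in the Hand2-null array and 89.4 in the control array by 1417263_at. Both probe sets were higher in the Hand2-null array, by 1.49-fold and 1.27-fold. At a log2 ratio of 0.57 the gene lay inside the middle 95% of all measured genes, and 6.39% of them had a ratio as high or higher. Ptgs2 is also an immediate-early gene, which handling of tissue can induce. The 18 immediate-early and heat-shock genes read beside it all passed both floors. Their log2 ratios had a median of 0.47 and ranged from -0.35 to 0.98, 17 of them above 0. The part of handling in the Ptgs2 value was not tested.

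Ptges, the inducible prostaglandin E synthase, was close to the floor. Its signals were 73.2 in the Hand2-null array and 67.7 in the control array by 1439747_at, and 69.8 in the Hand2-null array and 53.6, under the floor, in the control array by 1449450_at. The third probe set, 1449449_at, had 33.9 in the Hand2-null array and 17.2 in the control array, under both floors. The log2 ratio of 0.11 by the first probe set was smaller than the spread between probe sets of a gene.

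Hpgd, the dehydrogenase that inactivates prostaglandins, had a signal of 1113 in the Hand2-null array and 565 in the control array by 1419905_s_at. It was 1.97-fold higher, just short of 2-fold, and 2.16% of measured genes had a ratio as high or higher. Its second probe set, 1419906_at, had 82.8 in the Hand2-null array and 44.0, under the floor, in the control array, which is at least 1.29-fold higher. Both probe sets pointed the same way. The name of the first marks it as able to match other transcripts, and without such probe sets the log2 ratio of Hpgd is at least 0.37.

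Of the prostaglandin E receptors that raise cyclic AMP, neither reached 2-fold, and Ptger4 came closer to it. Ptger4 had signals of 1081 in the Hand2-null array and 2058 in the control array by 1424208_at, and of 85.3 in the Hand2-null array and 139 in the control array by 1421073_a_at. It was 1.90-fold lower by the first and 1.63-fold lower by the second, with log2 ratios of -0.93 and -0.71. In all, 0.993% of measured genes had a ratio as low or lower than the first, which lies outside the middle 95%. Ptger2 had 62.9 in the Hand2-null array, under the floor, and 83.1 in the control array, so that it was at least 1.23-fold lower by its 1 probe set. That control signal is near the floor, and the log2 ratio of -0.30 is inside the middle 95%.

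Ptger3, the receptor that mostly lowers cyclic AMP, was nearly equal in the arrays. It had signals of 545 in the Hand2-null array and 537 in the control array by 1450344_a_at, a log2 ratio of 0.02, smaller than the spread between probe sets. Its other probe set, 1425251_at, had 6.38 in the Hand2-null array and 1.01 in the control array, under both floors, so no fold is given. With each array centred on its median the log2 ratio of Ptger3 was -0.03, so that its direction is not settled.

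The receptors that act through Gq proteins could be compared only in part. Ptgfr, the prostaglandin F receptor, has 5 probe sets, and all 5 were under both floors, at 1.02 to 29.6 in the Hand2-null array and 1.59 to 23.0 in the control array. Of the 5, 2 had the higher signal in the Hand2-null array and 3 in the control array, so no level and no direction can be given for Ptgfr. Oxtr, the oxytocin receptor, had 245 in the Hand2-null array and 29.6, under the floor, in the control array by 1440888_at. It was at least 3.81-fold higher, with a log2 ratio of at least 1.93. Its other probe set, 1426000_at, had 19.5 in the Hand2-null array and 5.05 in the control array, under both floors. The size of the Oxtr difference is a bound set by the floor, and with the floor at the 75th percentile the bound on its log2 ratio fell to 0.59.

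**Figure D2:**
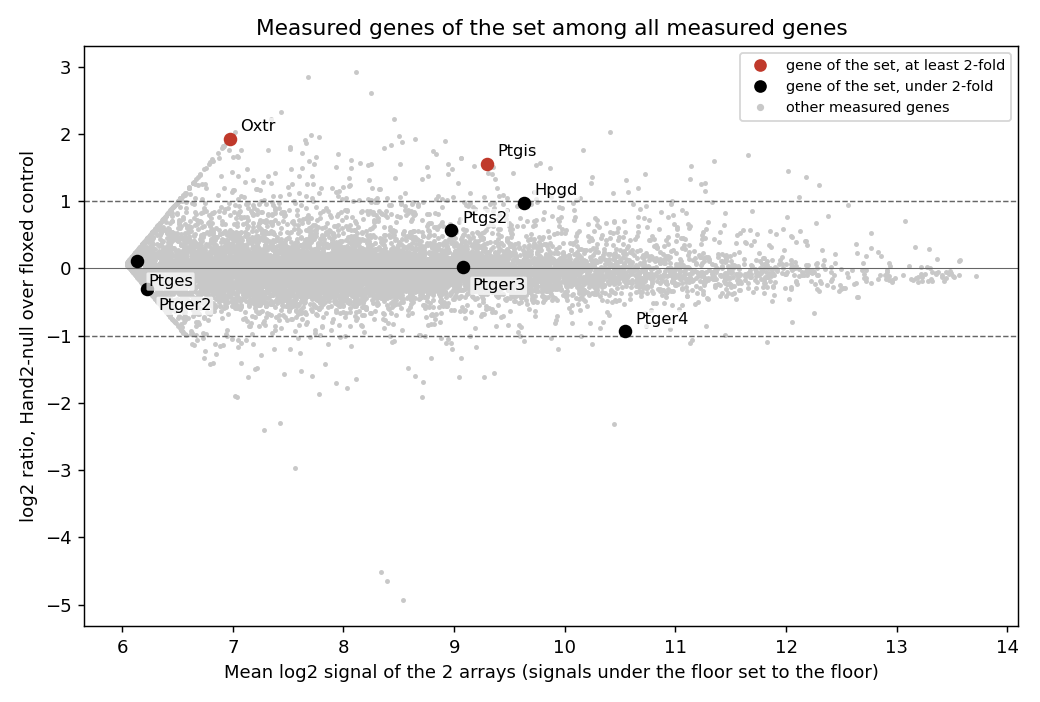
log2 ratio of Hand2-null over floxed control against the mean log2 signal of the 2 arrays, with every measured gene as a grey point and the 8 measured genes of the set labelled. Oxtr at 1.93 and Ptgis at 1.56 lie above the dashed line of 2-fold, Hpgd at 0.98 just under it, and Ptger4 at -0.93 just above the lower line.

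Of the 10 genes, 8 reached the floor with a probe set in 1 or both arrays. In the Hand2-null array 6 of the 8 were higher and 2 lower, where 44.7% of all measured genes were higher. The 6 include Ptger3 at 0.02, which turned to -0.03 with median centring, leaving 5. Of the 8, 2, Ptgis and Oxtr, were at least 2-fold higher, where 1.99% of all measured genes were. At least 2-fold lower were 0 of the 8, against 0.742% of all measured genes. Oxtr passed the floor only in the Hand2-null array and Ptger2 only in the control array, so for these genes the floor itself fixes a difference. Since the genes were chosen with earlier results of these arrays known, the counts describe them and support nothing further. At a threshold of 1.5-fold 3 of the 8 were higher, with Hpgd added, beside 6.21% of all measured genes, and 1, Ptger4, was lower, beside 3.34%. Ptgs2, at 1.49-fold, lay just under that threshold. Hpgd and Ptger4 stood nearest to 2-fold without reaching it.

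The other genes of these pathways, 114 in 9 lists, were read by the same rule. Of 102 named on the array, 70 were measured, 37 higher and 33 lower in the Hand2-null array. The median of their log2 ratios was 0.02, against -0.03 over all measured genes. At least 2-fold higher were 2 of them and at least 2-fold lower 2, beside the same 1.99% and 0.742%. The phospholipase A2 family, some members of which release arachidonic acid from membranes, had 4 of 7 measured genes higher and 3 lower, with a median of 0.01. Pla2g10, a secreted form, had 210 in the Hand2-null array and 405 in the control array, a log2 ratio of -0.95, and Plaat3 was at -0.69. Pla2g4a, the cytosolic enzyme that feeds the cyclooxygenases, was nearly equal, at 489 in the Hand2-null array and 487 in the control array.

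Among 7 measured terminal synthases and related reductases 3 were higher and 4 lower, and the median was -0.13. Cbr3, a carbonyl reductase, had 334 in the Hand2-null array and 766 in the control array and was 2.29-fold lower, while its relative Cbr2 was at a log2 ratio of 0.57 and the aldo-keto reductase Akr1b8 at -0.69. Ptgds and Hpgds, the prostaglandin D synthases, were under both floors. All 4 genes of transport and breakdown beside Hpgd had small log2 ratios, from -0.22 for Ptgr2, a reductase of prostaglandin metabolites, to 0.17 for Ptgr1, with a median of -0.16. The uptake carrier Slco2a1 was at -0.12 and the efflux pump Abcc4 at -0.19. Of 5 measured genes of the lipoxygenase branch, the other oxidative route from arachidonic acid, 1 was higher and 4 lower, with a median of -0.02. Alox12 was higher by a log2 ratio of at least 0.62, and Alox15 was at -0.38.

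Of the 8 other receptors and receptor-linked genes only Ptgfrn was measured. It encodes a membrane protein that binds the prostaglandin F receptor, and it had 1874 in the Hand2-null array and 776 in the control array, 2.41-fold higher. The second probe set of Ptgfrn was under both floors, and so were the prostacyclin receptor Ptgir, at 52.1 in the Hand2-null array and 33.6 in the control array, the thromboxane receptor Tbxa2r, at 49.9 in the Hand2-null array and 28.1 in the control array, and Ptger1. Of 5 genes of oxytocin and vasopressin named on the array 1 was measured. It was Oxt, the oxytocin precursor, at 70.6 in the Hand2-null array and 67.4 in the control array, near the floor, with a log2 ratio of 0.07. The vasopressin receptors Avpr1a, Avpr1b and Avpr2 were under both floors.

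Genes through which Gq-coupled receptors act and genes of contraction had 9 of 14 measured genes higher and 5 lower, with a median of 0.16. Plcb4, a phospholipase C that Gq proteins activate, had 300 in the Hand2-null array and 150 in the control array, a log2 ratio of 1.00 that just reached 2-fold, and its 4 other probe sets were under both floors. Rgs2, which shortens Gq signals, went the other way. Its signals were 2493 in the Hand2-null array and 5313 in the control array, 2.13-fold lower, and its 3 other probe sets were lower by 2.13-fold, by 2.75-fold and by at least 2.78-fold. The calcium channel gene Cacna1c was at 0.89 and Plcb1 at 0.75. The gap junction gene Gja1, which couples contracting muscle cells, was at -0.07, with 3352 in the Hand2-null array and 3528 in the control array.

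Genes of cyclic AMP signalling, which Ptger2 and Ptger4 feed, were close to even. Of 20 measured genes 11 were higher and 9 lower, 0 by 2-fold in either direction, with a median of 0.03. Pde4b and Pde4d, which break down cyclic AMP, were at 0.73 and 0.42, the adenylyl cyclase Adcy9 at 0.41 and the inhibitory G protein Gnai1 at -0.41. Of 11 measured genes known to act upstream of Ptgs2 in other settings 6 were higher and 5 lower, 0 by 2-fold in either direction, with a median of 0.08. The cytokine Il6 was at 0.77, Cebpb, a transcription factor that binds the Ptgs2 promoter, at 0.58, the growth factor Hbegf at 0.57, and the receptor Egfr at -0.61. Il1b, which induces Ptgs2 in many cells, had 642 in the Hand2-null array and 662 in the control array.

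**Figure D3:**
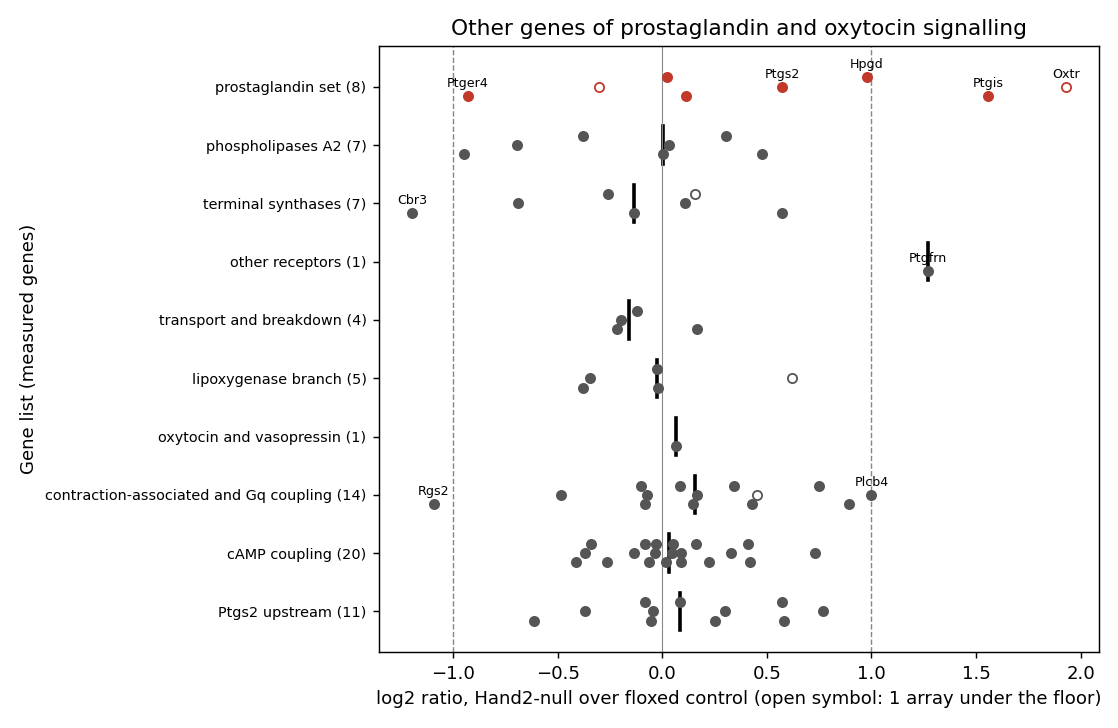
log2 ratio of Hand2-null over floxed control for the 8 measured genes of the set and for the measured genes of 9 further lists, with the number of genes in parentheses, the median of each further list as a black bar and open symbols where 1 array was under the floor. Ptgfrn and Plcb4 reach the line of 2-fold on the right and Cbr3 and Rgs2 pass it on the left, while the medians of lists with more than 1 measured gene lie between -0.16 and 0.16.

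The labelled cell type was checked against markers. All 14 stromal markers were above the floor in both arrays, 6 higher and 8 lower. Their median log2 ratio was -0.11, and the matrix genes Col3a1, Col1a2 and Dcn were at 0.12, 0.15 and 0.28. Markers of other cells were present as well. Each of the 18 measured smooth muscle markers had the higher signal in the Hand2-null array, by at least 2-fold for 11. For 5 of the 18 the control signal was under the floor, so their ratios are bounds, and the median over all 18 was no less than 1.16. The other 13 had log2 ratios of 0.70 to 2.02, with a median of 1.36. The summed signal of all 18 was 60721 in the Hand2-null array and 27185 in the control array, and 0 of the 18 were listed at 0. Acta2, Tpm2 and Mylk, which encode contractile proteins and their kinase, were at 0.70, 0.95 and 1.24. Muscle of the uterus expresses Oxtr, and muscle of vessels expresses Ptgis. The log2 ratio of Ptgis, 1.56, lay within the range of the 13 markers above both floors. That of Oxtr is known only as at least 1.93 and is not placed among them. In RNA of mixed cells, more cells of a type and more RNA per cell cannot be told apart, and the part of muscle cells in the values of Oxtr and Ptgis was not tested.

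Endothelium of vessels is another known site of Ptgis. Of 10 endothelial markers 3 were higher and 7 lower, and the median was -0.24, and Esam, Emcn and Cdh5 were at -0.42, -0.43 and -1.11. The last was the 1 marker at least 2-fold lower, and Cldn5, at 1.55, the 1 at least 2-fold higher. Their summed signal was 3391 in the Hand2-null array and 3916 in the control array. Of 5 pericyte markers 2 were higher and 3 lower, and the median was -0.04. Summed signals were 4433 in the Hand2-null array and 5653 in the control array. Rgs5 alone gave 3176 of the first sum and 4435 of the second. Abcc9 and Notch3 were at -0.04 and -0.42. Rgs5 is both in this list and in that of contraction, at -0.48, and Kcnmb1 is in the lists of contraction and smooth muscle, at no less than 0.46.

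Epithelium is a known site of Ptgs2, Hpgd and Ptger2. Of 16 measured epithelial markers 11 were higher and 5 lower, and the median was 0.18. Summed signals were 13067 in the Hand2-null array and 10887 in the control array. Krt8, Krt18 and Sprr2f were at 0.04, -0.26 and 0.76. Ltf, with 1566 in the Hand2-null array and 559 in the control array, was the 1 epithelial marker at least 2-fold higher. Sprr2f had 2110 in the Hand2-null array and 1243 in the control array, so Ltf and Sprr2f weigh heavily in the sums. All 7 mesothelial markers were higher, and 3 reached 2-fold. For 4 of the 7 the ratio is a bound, so the median was no less than 0.93. They had summed signals of 1365 in the Hand2-null array and 526 in the control array, and Rspo1, Upk3b and Gpm6a were at 1.07, 1.42 and 1.77. Macrophages, another source of prostaglandins, had 3 of 9 measured markers higher and 6 lower, with a median of -0.05, and Lyz2, Csf1r and C1qa were at -0.18, 0.16 and -0.11. Of 5 measured mast cell markers 3 were higher, and 2 of these reached 2-fold. The median was no less than 0.91, the bound of 1 marker under the floor in the control array, and Hdc, Cpa3 and Kit were at -0.18, 1.65 and -0.56. Of 5 measured natural killer and T cell markers 2 were higher, with a median of -0.34, and Gzmb, Cd3g and Nkg7 were at -0.45, 0.89 and -0.34. The part of these cells in the values of the prostaglandin genes was not tested.

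**Figure D4:**
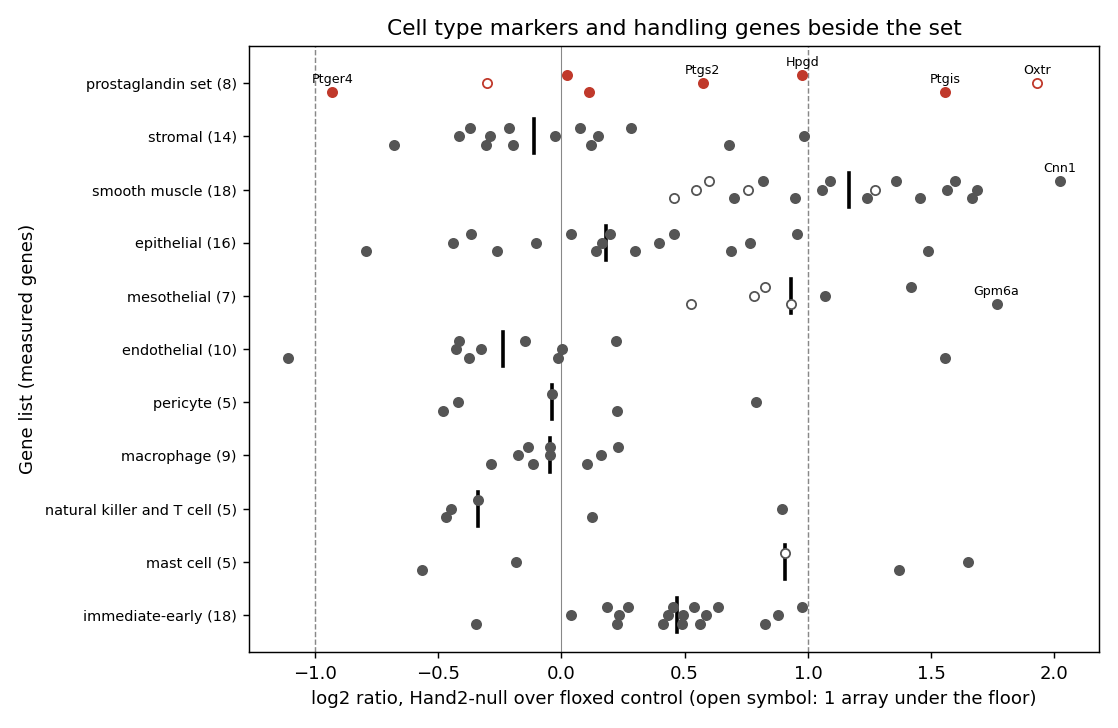
log2 ratio of Hand2-null over floxed control for the 8 measured genes of the set, for measured markers of 9 cell types and for immediate-early and heat-shock genes, with medians of the marker lists as black bars and open symbols where 1 array was under the floor. Smooth muscle markers, with a median of no less than 1.16, and mesothelial markers, with no less than 0.93, lie wholly right of 0, as do all but 1 of the immediate-early and heat-shock genes.

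The genes next to these on the chromosomes, by the order of protein-coding genes in RefSeq, were read after the values above were seen. Of 18 neighbours of the 9 genes 11 were measured, 5 higher and 6 lower, with log2 ratios from -1.04 to 0.84. Oxtr lies between Cav3, which was under both floors, and Rad18, a DNA repair gene that had 128 in the Hand2-null array and 71.6 in the control array. B4galt5, next to Ptgis, was at 0.23. Ttc33 and Dab2, on either side of Ptger4, were at -0.16 and 0.01, and Cep44, next to Hpgd, was at -0.16. The 1 neighbour at least 2-fold lower was Cth, an enzyme of cysteine synthesis next to Ptger3, at 134 in the Hand2-null array and 276 in the control array. Pla2g4a, whose product releases the substrate of cyclooxygenases, is also the neighbour of Ptgs2.

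**Figure D5:**
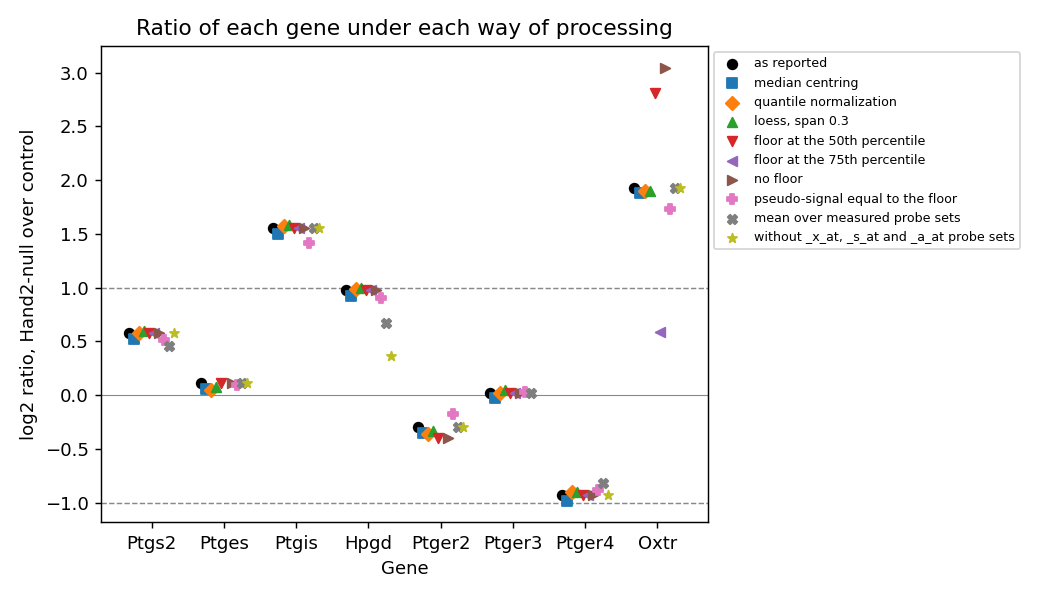
log2 ratio of Hand2-null over floxed control for each of the 8 measured genes under the processing used here, in black, and under each alternative. Ptgis stays between 1.41 and 1.58 and Ptger4 between -0.98 and -0.82, whereas Oxtr ranges from 0.59 with the highest floor to 3.05 with none, and Hpgd from 0.37 by its second probe set to 1.00 after loess.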

How the data were processed

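Pooled stromal cell RNA of each genotype was labelled from 100 ng and hybridized to 1 Affymetrix array, per the labels' protocols. The authors deposited linear intensity values. Per the submitters' processing notes they are MAS5 signals from Affymetrix Expression Console, version 1. After trimming 2% at each end both arrays had a mean of 150.001. A genome build and any further normalization are not given in the sources used here.

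Control probe sets, 64 in number, were left out. Signals under the 60th percentile of an array were set to it, and log2 ratios of Hand2-null over control were taken. Each gene was represented by its probe set of highest mean signal on the log2 scale, and every probe set of the 10 genes was read. Probe sets with several genes or none listed were not named. List entries were matched by symbol, or by synonym where the entry is no RefSeq symbol. A value is called at 2-fold.

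The genes and lists were chosen with earlier results of these data known. Named were all genes of the set, in each pathway list those at least 2-fold different and up to 4 with the largest ratios, in each marker list the 3 with the highest signals, and Hand2. The exceptions, named after their values were seen, were genes given because their level or lack of one was of interest: Pla2g4a, Ptgds, Hpgds, Ptgir, Tbxa2r, Ptger1, the vasopressin receptors, Gja1, Il1b, Kcnmb1, Cldn5, Ltf and the chromosomal neighbours. The procedure was tested on simulated arrays. Changes were put only into genes well above the floor, so the finding of changes near the floor was not tested. The simulated noise was independent for each probe set and held no error shared by an array or RNA pool. No test between genotypes was possible with 1 array each, and the number of arrays limits the precision. Python 3.11.15, numpy 2.4.6, pandas 2.3.3 and statsmodels 0.14.6 were used.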

Additional observations from a re-analysis of the deposited data

How the results depend on the processing

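No paired analysis was possible because each genotype has 1 array, which also leaves no replicate to omit. The alternatives were median centring, quantile normalization, loess, floors at the 50th and 75th percentiles, no floor, the floor added as a pseudo-signal, averaging measured probe sets, omitting those that can match several transcripts, and thresholds of 1.5-fold and 3-fold. Ptgis, Hpgd, Ptgs2, Ptges and Oxtr kept a positive ratio and Ptger2 and Ptger4 a negative one in every setting that measured them. Where Oxtr or Ptger2 passed a floor in only 1 array, the floor itself largely fixed the sign. With no floor their log2 ratios were 3.05 and -0.40. Ptger3 turned to -0.03 with median centring. Under the 75th percentile floor Oxtr was still measured, but the bound on its log2 ratio fell to 0.59, under 2-fold. Genes of the set at least 2-fold higher there numbered 1 of 6 in place of 2 of 8. At 3-fold they numbered 1 of 8. Over all measured genes these counts were 117 of 7489 and 49 of 10376, in place of 206 of 10376. At 1.5-fold 3 genes of the set were higher and 1, Ptger4, was lower in place of 0, beside 644 and 347 of 10376 measured genes. Hpgd reached 2-fold after loess, making 3 of 8, beside 213 of 10377 measured genes. Pathway genes at least 2-fold higher numbered 1 in place of 2 with median centring, quantile normalization, the 75th percentile or a pseudo-signal. Among all measured genes 178, 200, 117 and 118 were at least 2-fold higher in these settings, in place of 206. With no floor 11 of 102 pathway genes were higher and 7 lower, in place of 2 and 2 of 70. At 1.5-fold 7 pathway genes were higher and 6 lower, and at 3-fold 0 and 0. Over all measured genes 1552 were higher and 1520 lower of 18193 with no floor, and 49 and 20 of 10376 at 3-fold. At these thresholds more or fewer genes pass the threshold itself. Without a floor, genes under both floors enter the count, and ratios that were bounds are no longer limited. Kcnmb1, for example, had a bound of 0.46 with the floor and a log2 ratio of 1.49 from its signals as listed. The part of each in the counts was not tested. For the other settings the cause was not tested. Under the processing used here Plcb4 only just reached 2-fold, at a log2 ratio of 1.00, and Ptgfrn was at 1.27. With the floor at the 75th percentile Ptges and Ptger2 gave no value, nor did Ptger3 without probe sets that can match several transcripts. Ptgfr gave one only with no floor.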
